A study of Mus musculus with 13 samples.

Results

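Binding of the glucocorticoid receptor (GR) and of the corepressor NCOR1 was examined at 9 genes of amino acid catabolism in mouse liver: Tat, Sds, Gpt, Gpt2, Got1, Got2, Prodh, Tdo2 and Cdo1. A peak was counted for a gene when its centre lay inside that gene's body, or within 100 kb of it with no other protein-coding gene body nearer (RefSeq, GRCm38.p6, the assembly of the mm10 build). By this rule 50 of 79141 sites in 7 deposited peak lists belonged to the 9 of 21887 genes. Peaks that overlapped by at least 1 bp, directly or through another peak, were merged into a site. A peak that overlapped no other was a site by itself. The rule uses no tag count. The series holds 13 libraries from livers of male mice, 12 chromatin immunoprecipitations and 1 input. Control mice (genotype label GFP) and mice labelled CRE, a knockout that includes NCOR1 and is titled dKO, received vehicle (saline) or dexamethasone, a synthetic glucocorticoid, at 1 mg/kg into the peritoneum at zeitgeber time (ZT) 8. Livers were taken 2 h later, at ZT 10. GR was mapped with 2 libraries in each of the 4 combinations of genotype and treatment. NCOR1 was mapped in control liver after vehicle (1 library) and after dexamethasone (2 libraries), and in dKO liver after vehicle (1 library). The age and strain of the mice, and the promoter and delivery of Cre, are not given in the sources used here. The input came from a control vehicle liver.

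Amino acids broken down in the liver lose their nitrogen, and their carbon feeds gluconeogenesis, ketone bodies or oxidation. Aminotransferases move the amino group to a keto acid: Tat acts on tyrosine, Gpt (cytosolic) and Gpt2 (mitochondrial) on alanine, and Got1 (cytosolic) and Got2 (mitochondrial) on aspartate. Sds, serine dehydratase, releases ammonia from serine and leaves pyruvate. Prodh, Tdo2 and Cdo1 carry out the first oxidative step for proline, tryptophan and cysteine. GR is a hormone-dependent transcription factor, and glucocorticoid induction of tyrosine aminotransferase and tryptophan dioxygenase in liver is among the classical models of steroid action. NCOR1 is a scaffold protein through which the histone deacetylase HDAC3 reaches nuclear receptors.

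Every value below is a normalized tag count, the number of sequenced tags in a 200 bp peak per 10 M tags (M for mega). Where a pair of values is given for a genotype, vehicle comes first and dexamethasone second. Both libraries of a group were pooled before peaks were called, so each list gives 1 value per site and no spread between animals, and no difference was tested. Ratios carry 95% intervals that cover counting error only. The lists rested on 17.5 M to 36.9 M tags. Where a list has no peak, none met the authors' thresholds, and weaker binding may still be present. The share of all tags that lay in GR peaks was 5.0% and 7.23% in control and 3.4% and 4.1% in dKO. For NCOR1 it was 8.52% and 6.38% in control and 2.07% in dKO after vehicle. Of 10 hepatocyte marker genes 9 had a GR peak in each control list, against 3 (vehicle) and 2 (dexamethasone) of 6 Kupffer cell genes, 7 and 8 of 8 endothelial and stellate cell genes and 4 of 6 neuronal genes in both. In whole liver, fewer cells with a bound site and less binding per cell cannot be told apart.

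RefSeq promoter windows, from 250 bases before to 50 after a transcription start, were matched for 6 of the 9 genes, and peaks touched 4 of them. The 250 bases before the start are printed 5′ to 3′ for these 4, because they show how different the occupancy of the start sites was: NCOR1 without GR at Tat and Got2, the edge of a site with both proteins at Got1, and both proteins at Tdo2. Capitals mark the bases under the peak that covered most of the window, which was an NCOR1 control vehicle peak at Tat and Got1, an NCOR1 control dexamethasone peak at Got2 and a GR control vehicle peak at Tdo2.
Tat (chr8:109990186-109990435, plus strand): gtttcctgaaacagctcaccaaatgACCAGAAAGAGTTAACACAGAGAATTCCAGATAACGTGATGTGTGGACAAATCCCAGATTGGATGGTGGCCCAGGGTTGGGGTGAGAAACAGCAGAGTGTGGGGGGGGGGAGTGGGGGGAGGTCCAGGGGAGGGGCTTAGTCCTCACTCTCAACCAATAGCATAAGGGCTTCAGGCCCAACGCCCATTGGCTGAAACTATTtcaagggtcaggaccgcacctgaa
Got1 (chr19:43524606-43524855, minus strand): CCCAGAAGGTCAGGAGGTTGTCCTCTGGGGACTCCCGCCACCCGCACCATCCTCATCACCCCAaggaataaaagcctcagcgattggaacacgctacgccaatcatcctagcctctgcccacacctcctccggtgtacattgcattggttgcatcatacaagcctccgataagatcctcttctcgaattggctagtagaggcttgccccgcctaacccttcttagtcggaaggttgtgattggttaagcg
Got2 (chr8:95888402-95888651, minus strand): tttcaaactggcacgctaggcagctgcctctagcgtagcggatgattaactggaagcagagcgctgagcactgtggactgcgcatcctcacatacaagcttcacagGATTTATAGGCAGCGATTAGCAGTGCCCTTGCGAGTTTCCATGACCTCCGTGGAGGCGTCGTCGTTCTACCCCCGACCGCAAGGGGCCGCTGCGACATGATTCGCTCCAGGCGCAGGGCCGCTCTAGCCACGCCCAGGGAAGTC
Tdo2 (chr3:81975729-81975978, minus strand): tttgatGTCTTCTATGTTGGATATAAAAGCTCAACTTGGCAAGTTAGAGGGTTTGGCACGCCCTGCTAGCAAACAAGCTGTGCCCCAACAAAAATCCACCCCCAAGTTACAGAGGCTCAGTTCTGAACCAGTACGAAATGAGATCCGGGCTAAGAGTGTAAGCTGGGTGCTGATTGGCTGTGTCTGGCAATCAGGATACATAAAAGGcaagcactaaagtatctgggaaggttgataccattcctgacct
No GR peak touched the Tat window, and its NCOR1 peak (52.6) covered 201 bases. At Got1 the NCOR1 control vehicle peak reached 63 bases and the GR control vehicle peak 7 bases into the window. At Tdo2 the GR peak covered 201 bases in control vehicle and 196 in control dexamethasone, and NCOR1 peaks covered 201 and 147 bases in control and 124 in dKO vehicle. The motif AGAACA, which on the other strand reads TGTTCT and forms one arm of the GR recognition sequence, occurred in 0 of the 6 windows. It occurred in 6233 of all 32851 promoter windows (19%), and the palindrome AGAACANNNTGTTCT in 3 (0.00913%). Every window with the palindrome is also one with the shorter motif. That the letters are not in these windows says nothing further about GR.

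Tat had 8 sites, 6 with GR and 7 with NCOR1, spread from 10.9 kb upstream to 20.6 kb downstream of its promoter start. Its leading GR site lay 2.47 kb upstream of that start (chr8:109987864-109988064), within the RefSeq gene body, which begins farther upstream. GR tag counts there were 140 with vehicle and 291.9 with dexamethasone in control, and 45 and 182.7 in dKO, and no NCOR1 list had a peak. It ranked 31 of 40853 peaks in the control dexamethasone list and 42 of 28378 in the dKO dexamethasone list, against 135 of 30011 and 407 of 23362 under vehicle. The dexamethasone value was 2.08 times the vehicle value in control (95% interval 1.85 to 2.36) and 4.06 times in dKO (3.37 to 4.92). The dKO value was 0.321 times the control value under vehicle (0.262 to 0.39) and 0.626 times under dexamethasone (0.562 to 0.695). The order of the 4 values, from low to high, was thus dKO vehicle, control vehicle, dKO dexamethasone and last control dexamethasone.

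NCOR1 lay on both sides of that GR site. Upstream of it, 3 sites had both a GR and an NCOR1 peak, though not always in the same genotype. The site 6.21 kb upstream of the start (chr8:109984125-109984325) had GR counts of 90.6 and 93.7 in control and 26.2 and 69.3 in dKO, and NCOR1 counts of 63.3 and 28.4 in control. There the GR ratio of dexamethasone to vehicle was 1.03 (0.867 to 1.23) in control and 2.65 (2.03 to 3.43) in dKO. The site 7.95 kb upstream (chr8:109982387-109982587) had GR counts of 53.5 and 85.8 in control vehicle and dexamethasone, no peak in dKO vehicle and 40.7 in dKO dexamethasone, with NCOR1 at 57.7 and 36.8 in control. The site 10.9 kb upstream (chr8:109979429-109979629) had GR peaks in dKO liver alone, at 16.7 under vehicle and 31.7 under dexamethasone, and was the strongest NCOR1 site of Tat, at 67 in control vehicle and 31.4 in control dexamethasone. NCOR1 peaks without GR lay 3.95 kb upstream (chr8:109986382-109986582, 53.2) and 0.125 kb upstream of the start (chr8:109990211-109990411, 52.6), both in control vehicle and in no other list. A site 14 kb downstream (chr8:110004365-110004565) had GR counts of 40.2 and 38.5 in control and 18 and 14.7 in dKO, in which the genotypes differed and the treatments did not by more than counting error, and NCOR1 at 34 in control vehicle only. The last site, at 20.6 kb, had counts of at most 6.99.

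**Figure D1:**
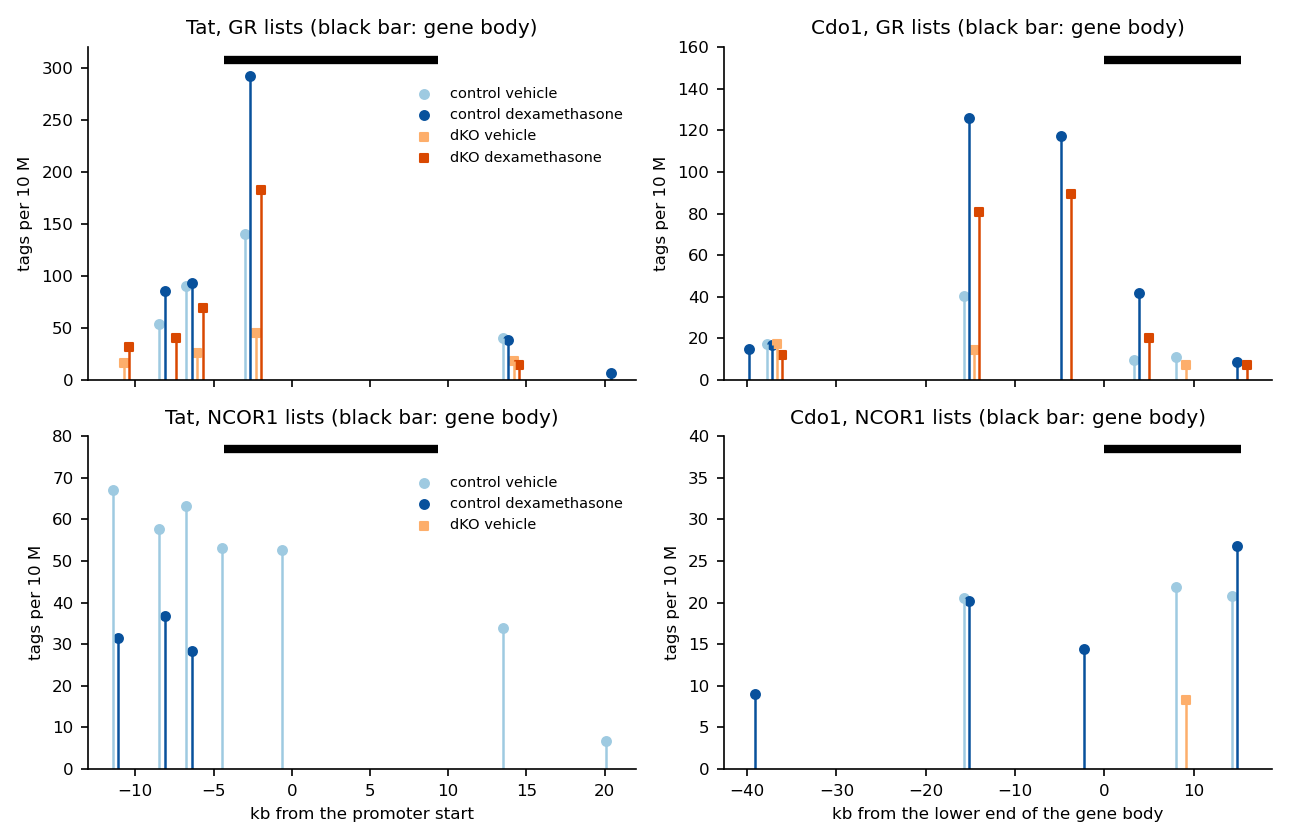
Normalized tag count (vertical axis, tags per 10 M, linear from 0) of each GR and NCOR1 site at Tat and Cdo1 against distance in kb, with list values set slightly apart sideways for legibility. The Tat GR site 2.47 kb upstream of the start stands at 291.9 in control dexamethasone with no NCOR1 peak, and Cdo1 has a pair of tall GR sites below its gene body in the dexamethasone lists.

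Gpt had 2 sites, both within 0.511 kb of the low-coordinate end of its body. The first (chr15:76696115-76696315) had GR counts of 67.9 and 82.6 in control and 36.1 and 63.1 in dKO, and NCOR1 counts of 57.7 and 36.7 in control. Its GR ratio of dexamethasone to vehicle was 1.22 (0.999 to 1.47) in control and 1.75 (1.38 to 2.23) in dKO. The second (chr15:76696578-76696778) had NCOR1 only, at 32.4 in control vehicle and 23.2 in control dexamethasone.

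Gpt2, the mitochondrial partner, had 12 sites, the most of the 9 genes, 11 of them with GR. The strongest lay 4.49 kb upstream of its promoter start (chr8:85487985-85488185) with GR counts of 73 and 97.2 in control and 38.2 and 79.4 in dKO, and no NCOR1 peak. The ratio of dexamethasone to vehicle there was 1.33 (1.11 to 1.6) in control and 2.08 (1.66 to 2.6) in dKO. Beside it, 3.76 kb upstream (chr8:85488713-85488913), GR counts were 33.3 and 43.5 in control and 22 and 28.7 in dKO, and NCOR1 counts were 37.1 and 28.2 in control. A second pair of sites lay farther out. At 13.9 kb (chr8:85478527-85478727) GR counts were 39.1 and 65.4 in control and 19.7 and 44.5 in dKO, and this was the strongest NCOR1 site of the gene, at 69.2 and 51.7 in control. At 15.1 kb (chr8:85477374-85477574) GR counts were 25.8 and 74.9 in control and 14.8 and 40.1 in dKO, so that dexamethasone stood 2.9 times (2.21 to 3.84) above vehicle in control and 2.71 times (1.93 to 3.89) in dKO. NCOR1 was called there at 27.6 in control vehicle and 51.6 in control dexamethasone, in peaks whose centres lay 234 bp apart and did not overlap each other. Inside the gene, 3.73 kb downstream of the start (chr8:85496202-85496402), NCOR1 stood at 33.5 and 23.3 in control and GR was called in control vehicle alone, at 18.2. The remaining 7 sites had counts between 5.78 and 24, of which 6 carried GR alone and 1 NCOR1 alone.

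Got1 had 7 sites, all with NCOR1 and 6 with GR. The strongest GR site lay 0.405 kb upstream of its start (chr19:43524910-43525110) with GR counts of 70.1 and 72.9 in control and 23.3 and 37.8 in dKO, and NCOR1 counts of 35.4 and 19.8 in control. The ratio of dexamethasone to vehicle was 1.04 (0.851 to 1.27) in control and 1.62 (1.2 to 2.19) in dKO, and under vehicle the dKO value was 0.332 times the control value (0.251 to 0.439). A site 1.54 kb upstream (chr19:43526043-43526243) had GR at 43.5 and 37.6 in control, no peak in dKO vehicle and 18.3 in dKO dexamethasone, with NCOR1 at 41.4 and 26.7 in control. Within the gene lay the strongest NCOR1 sites, where GR counts were low within the GR lists. The site 10.5 kb downstream (chr19:43514032-43514232) had NCOR1 at 65.8 and 52 in control and GR between 13.2 and 19.6. The site 8.01 kb downstream (chr19:43516494-43516694) had NCOR1 at 44.4 in control vehicle, 72.7 in control dexamethasone and 18.3 in dKO vehicle, and GR only in the dexamethasone lists, at 22.6 in control and 16.5 in dKO. There the NCOR1 ratio of dexamethasone to vehicle was 1.64 (1.27 to 2.13). The other 3 Got1 sites had counts of 8.99 to 18.7.

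Got2 had 6 sites, 3 with GR and 5 with NCOR1. Its leading site, 2.23 kb inside the gene from the start (chr8:95886066-95886266), had the highest NCOR1 count of all 9 genes, 87.8 in control vehicle, and 44.6 in control dexamethasone. GR counts there were 22.2 and 35.8 in control and 15.7 and 27.1 in dKO, with ratios of dexamethasone to vehicle of 1.61 (1.17 to 2.25) in control and 1.73 (1.19 to 2.49) in dKO. The next site, 1.31 kb inside, had GR at 23.5 and 27.5 in control and 12.2 and 19.7 in dKO and no NCOR1. The NCOR1 peak over the promoter, called under dexamethasone only, had a count of 17.3. The other 3 sites ranged from 6.58 to 17.8, and the farthest site of all 50 was among them, 66.9 kb from the body. Past the 100 kb limit, 11 peaks had Got2 as their nearest gene, at 517 kb to 1478 kb, and these are the only peaks of the 9 genes beyond the limit.

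**Figure D2:**
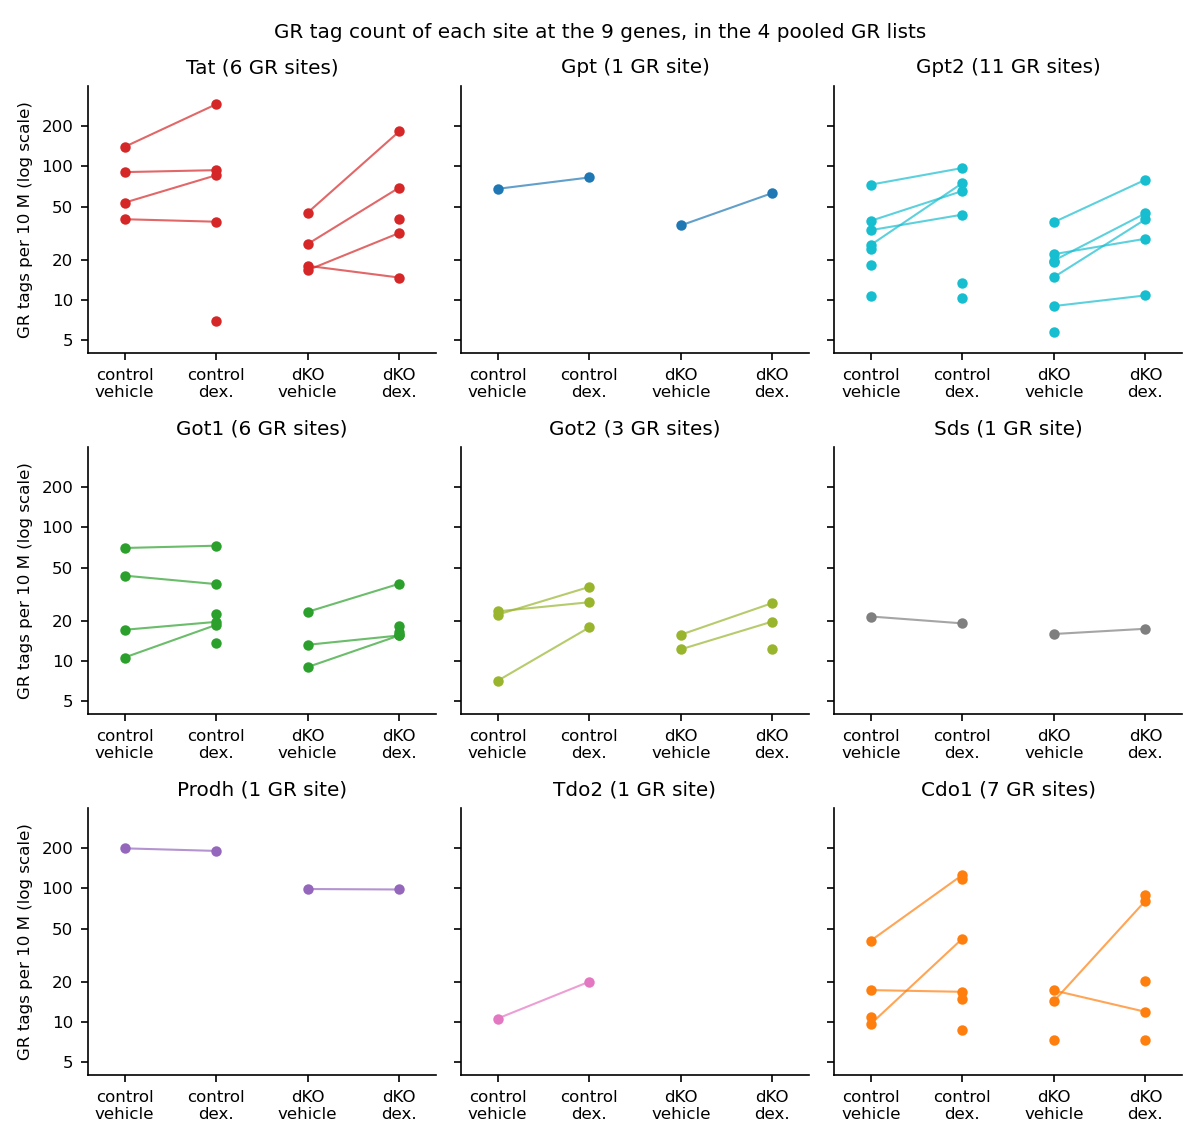
GR tag count per 10 M tags (vertical axis, log scale) of each GR site in the 4 pooled lists (horizontal axis), 1 panel per gene, with lines joining vehicle to dexamethasone at sites called in both. Tat reaches 291.9 in control dexamethasone, the single Prodh site is level within each genotype (199.5 and 190.8, then 98.9 and 98.1), and Tdo2 has no point in either dKO list.

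Sds had 1 site, near the high-coordinate end of its body (chr5:120483444-120483644). GR counts were 21.5 and 19.1 in control and 15.9 and 17.4 in dKO, a range within counting error for both drug comparisons (0.888, 0.603 to 1.29, in control and 1.09, 0.733 to 1.63, in dKO), and no NCOR1 list had a peak. Sds was the only one of the 9 genes with no NCOR1 site.

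Prodh, proline dehydrogenase, had the strongest GR site of the 9 genes under vehicle, 5.67 kb inside the gene from its start (chr16:18083421-18083621). GR counts were 199.5 with vehicle and 190.8 with dexamethasone in control, and 98.9 and 98.1 in dKO. The ratio of dexamethasone to vehicle was 0.956 (0.849 to 1.08) in control and 0.992 (0.845 to 1.16) in dKO, whereas dKO stood at 0.496 times control under vehicle (0.43 to 0.571) and 0.514 times under dexamethasone (0.446 to 0.591). NCOR1 was called at the same place at 47.5 in control vehicle and 31.7 in control dexamethasone, between a pair of sites that carried NCOR1 alone. These lay 7.54 kb (chr16:18081546-18081746) and 4.66 kb (chr16:18084432-18084632) inside the gene, with 52.6 and 56 in control vehicle and 26.7 and 28.4 in control dexamethasone. A further NCOR1 site 19.2 kb upstream had 14.6 in control dexamethasone.

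Tdo2, tryptophan dioxygenase, had 1 site, at its promoter (chr3:81975625-81975825). GR counts were 10.6 in control vehicle and 20 in control dexamethasone, a ratio of 1.89 (1.2 to 3.06), and no GR peak was called in either dKO list. NCOR1 was called in all 3 lists, at 21.4 in control vehicle, 30.7 in control dexamethasone and 6.87 in dKO vehicle. The control dexamethasone GR peak ranked 8767 of 40853 in its list, far below the leading peak of Tat. Tat is the other enzyme named above among the classical models.

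Cdo1, cysteine dioxygenase, had 9 sites, 7 with GR and 5 with NCOR1. Its strongest GR site lay 14.8 kb below the low-coordinate end of the body (chr18:46698246-46698446), with GR counts of 40.6 and 126 in control and 14.3 and 80.7 in dKO, and NCOR1 counts of 20.5 and 20.2 in control. The ratio of dexamethasone to vehicle was 3.1 (2.49 to 3.85) in control and 5.64 (4.05 to 7.83) in dKO, and the latter was the largest of any site of the 9 genes. A second site 4.54 kb below the body (chr18:46708548-46708748) was called under dexamethasone only, at 117.1 in control and 89.3 in dKO, and no NCOR1 list had a peak. The nearest vehicle GR peak lay 8679 bp away in control and 10286 bp away in dKO. Inside the body (chr18:46717236-46717436) GR stood at 9.65 and 42 in control, was not called in dKO vehicle, and stood at 20.1 in dKO dexamethasone, again with no NCOR1. The control ratio there, 4.35 (2.8 to 6.73), was the largest in control of the 9 genes. The strongest NCOR1 site, near the high-coordinate end of the body (chr18:46728230-46728430), had 20.8 in control vehicle and 26.8 in control dexamethasone, with GR at 8.66 and 7.36 in the control and dKO dexamethasone lists. The other 5 sites had counts of 7.38 to 21.9.

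Across the 50 sites, 37 carried GR in at least 1 list (74%, against 63.6% of all sites) and 36 carried NCOR1 (72%, against 72.6%). Peaks of both, not always from the same genotype or treatment, lay at 23 sites (46%, against 36.2%). GR was called without NCOR1 at 14 sites (28%, against 27.4%) and NCOR1 without GR at 13 (26%, against 36.4%). Of the 37 GR sites 17 (45.9%) were called in all 4 GR lists, against 32.5% of GR sites over the genome. In a single GR list 8 were called (21.6%, against 34.3%), with counts up to 18.2. Inside the gene bodies lay 23 sites, 14 lay within 5 kb outside them and 13 lay beyond.

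In control liver, 30 GR peaks were called at the 9 genes after dexamethasone and 26 after vehicle, and no shared site was lower by 1.5-fold or more. Dexamethasone peaks without a vehicle peak numbered 8 (26.7%), where 39.8% of all dexamethasone peaks had none. They were led by the Cdo1 site at 117.1 and the Got1 site at 22.6, and the other 6 had 14.8 or less. At a minimum of 8-fold over input the 8 became 4. Vehicle peaks without a dexamethasone peak numbered 4 (15.4%, against 18.1% of all), with counts of 10.7 to 24, and 3 of them belonged to Gpt2. Of the 22 shared sites 10 (45.5%) were at least 1.5-fold higher under dexamethasone, against 25.1% of all shared peaks, and 0 were at least 1.5-fold lower, against 15.9%. The 10 belonged to Tat (2), Gpt2 (2), Got2 (2), Cdo1 (2), Got1 (1) and Tdo2 (1). The median ratio was 1.32, against 1.05 over all 24576 shared peaks. Weak and strong peaks differed in this respect over the genome, so stronger peaks, with a mean count of at least 20, were also taken alone. Of these, 45.8% were at least 1.5-fold higher and 7.36% at least 1.5-fold lower, with a median of 1.44. At the 9 genes 7 of 17 such sites were higher and 0 lower, with a median of 1.31. Hepatocyte marker genes had 12 of 37 shared peaks at least 1.5-fold higher and 0 at least 1.5-fold lower.

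In dKO liver the corresponding lists held 26 and 22 peaks of the 9 genes. Dexamethasone peaks without a vehicle peak numbered 7 (26.9%, against 35.4% of all), led by the same Cdo1 site at 89.3 and by the Tat site 7.95 kb upstream at 40.7. Vehicle peaks without a dexamethasone peak numbered 3 (13.6%, against 21.5%), with counts of 5.78 to 19.3. At 8-fold over input the 7 became 4 and the 3 became 0. Of 19 shared sites 12 (63.2%) were at least 1.5-fold higher under dexamethasone, against 19.5% of all, and 0 were at least 1.5-fold lower, against 31.4%. The median ratio was 1.72 at the 9 genes and 0.929 over all 18330 shared peaks. Among stronger peaks, 10 of 12 sites of the 9 genes and 47.9% of all were at least 1.5-fold higher, with medians of 1.99 and 1.46. At least 1.5-fold lower were 0 of these 12 sites and 16.1% of all stronger peaks. Hepatocyte marker genes had 8 of 26 shared peaks at least 1.5-fold higher and 0 at least 1.5-fold lower. The share of tags in GR peaks moved with treatment as well, from 3.4% to 4.1% here and from 5.0% to 7.23% in control, and its part in these ratios was not tested.

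The genotypes were set side by side at the 17 sites called in all 4 GR lists, whose 4 values enter both ratios and the genotype comparisons below. The ratio of dexamethasone to vehicle was larger in dKO than in control at 12 of 17 sites (70.6%), against 36.7% of all 16338 such sites. The dKO ratio divided by the control ratio had a median of 1.23 and ran from 0.712 to 2.56, and over all sites its median was 0.898. With sites of a mean count of at least 20 alone it was larger in dKO at 10 of 13 sites of the 9 genes (76.9%) and at 46% of 3901 sites over the genome. The quotient was highest at the Tat site 6.21 kb upstream (2.56), followed by the Tat site 2.47 kb upstream (1.95) and the leading Cdo1 site (1.82). Any quotient above 1 was counted as larger, and the quotients carry no interval. It was near 1 at Prodh (1.04), the Got1 site 10.5 kb downstream (1.02), the leading Got2 site (1.07) and the Gpt2 site 3.76 kb upstream (0.999). The lowest quotients were at the Cdo1 site 36.9 kb from the body (0.712) and the Tat site 14 kb downstream (0.853). The dKO dexamethasone value exceeded the control vehicle value at 7 of 17 sites (41.2%, against 22.8% of all), among them the leading Tat and Cdo1 sites at 1.3 and 1.99 times, and the median over the 17 was 0.906.

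**Figure D3:**
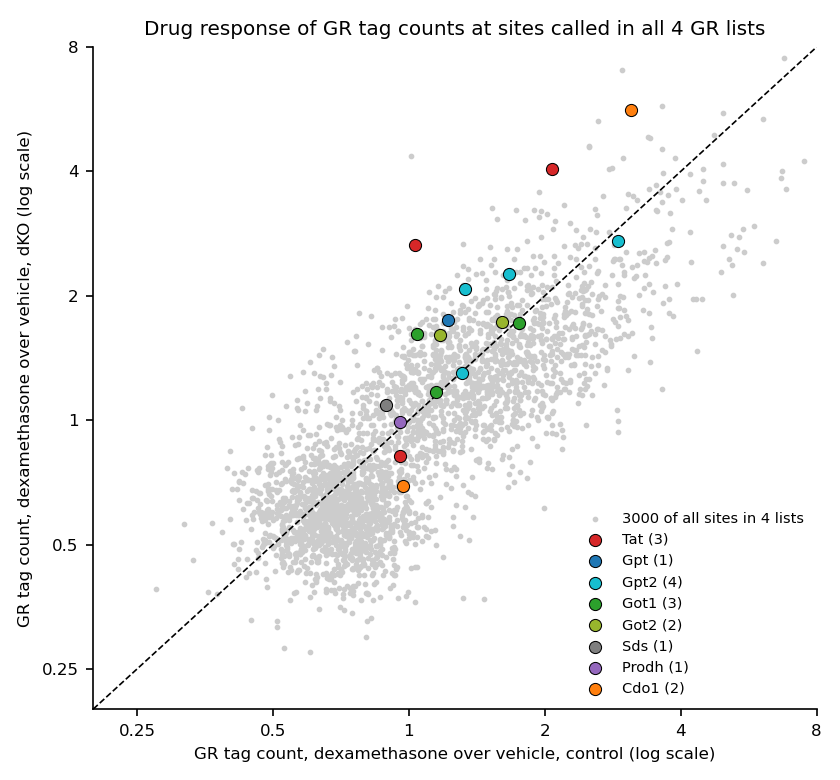
Ratio of GR tag counts, dexamethasone over vehicle, in control (horizontal axis) and dKO liver (vertical axis), both on log scales, at the 17 sites of the 9 genes called in all 4 GR lists (coloured) over a random sample of all such sites (grey); the dashed line marks equal ratios. Points of the Tat sites at 2.56 and 1.95 and the leading Cdo1 site at 1.82 times the control ratio lie well above the line, and Prodh lies on it near a ratio of 1.

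Under vehicle, GR counts were lower in dKO than in control liver at all 19 sites of the 9 genes called in both. The ratio of dKO to control ran from 0.289 at the Tat site 6.21 kb upstream to 0.994 at a Cdo1 site 36.9 kb from the body, with a median of 0.532, against 0.875 over all 19488 shared peaks. At least 1.5-fold lower were 12 sites (63.2%, against 22.3% of all), and 0 were at least 1.5-fold higher (1.66% of all). Tat (0.289, 0.321 and 0.448), Got1 (0.332) and Cdo1 (0.352) had the lowest ratios. Among stronger peaks 11 of 12 sites at the 9 genes and 32.6% of all were at least 1.5-fold lower, with medians of 0.5 and 0.833. Hepatocyte marker genes stood lower in dKO too, with a median of 0.56 and 18 of 24 shared peaks at least 1.5-fold lower. The medians were 1.03 for the Kupffer cell genes (0 of 2 lower), 1.03 for the endothelial and stellate cell genes (5 of 14) and 0.937 for the neuronal genes (3 of 9). The part of cell makeup in the ratios of the 9 genes was not tested. Control peaks without a dKO peak numbered 7 (26.9%, against 35.1%), including the Tat site at 53.5 and the Got1 site at 43.5. Only 3 dKO peaks (13.6%, against 16.6%) had no control peak, at Tat (16.7) and Gpt2 (8.99 and 5.78), and at 8-fold over input there were 0. The share of tags in GR peaks was 5.0% in the control and 3.4% in the dKO list, and the part of this gap in the ratios was not tested.

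Under dexamethasone, GR counts were again lower in dKO at all 24 shared sites, with ratios of 0.382 to 0.911. The median was 0.697, close to the 0.746 of all 24720 shared peaks, and among stronger peaks the medians were 0.64 and 0.616. At least 1.5-fold lower were 10 sites (41.7%, against 36.5% of all), and 0 were at least 1.5-fold higher (1.46% of all). All 4 marker groups had medians below 1 under this treatment, unlike under vehicle. These were 0.597 for hepatocyte genes (28 of 39 at least 1.5-fold lower) and 0.597 for endothelial and stellate cell genes (12 of 21). Neuronal genes had 0.639 (7 of 11) and Kupffer cell genes 0.721 (1 of 2). The part of cell makeup was not tested. Control peaks without a dKO peak numbered 6 (20%, against 39.5%), of which the Tdo2 promoter peak at 20 was the strongest. The 2 dKO peaks without a control peak (7.69%, against 12.9%) were the Tat site 10.9 kb upstream (31.7) and a Gpt2 site 26.3 kb upstream (10.8). At 8-fold over input the 6 became 3 and the 2 became 1, and within 10 kb of the gene bodies the 2 also became 1. On the log2 scale the median was -0.52, and -0.10 once the ratios were divided by the median over all shared peaks. The share of tags in GR peaks was 7.23% in control and 4.1% in dKO, and its part was not tested.

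In control vehicle liver 18 of 26 GR peaks at the 9 genes overlapped an NCOR1 control vehicle peak (69.2%, exact 95% interval 48.2 to 85.7), against 54.3% of all GR peaks. After dexamethasone 18 of 30 overlapped an NCOR1 dexamethasone peak (60%, 40.6 to 77.3), against 48.9%. These intervals treat peaks as independent draws, which peaks of the same gene need not be, so they are descriptions only. Both held the genome-wide share, and no difference was tested. The strongest GR sites under dexamethasone differed in this regard. NCOR1 was not called at the leading sites of Tat (291.9) and Gpt2 (97.2) or at the Cdo1 site at 117.1, and it was called at those of Prodh (190.8), Cdo1 (126), Gpt (82.6) and Got1 (72.9).

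NCOR1 in control liver had 29 peaks at the 9 genes under each treatment, with 23 sites shared. Counts were at least 1.5-fold lower after dexamethasone at 10 sites (43.5%, against 32% of all shared peaks) and at least 1.5-fold higher at 3 (13%, against 6.24%). The lower 10 belonged to Tat (3), Prodh (2), Got1 (2), Got2 (2) and Gpt (1), with the smallest ratios at the Tat sites 6.21 kb (0.449, 0.34 to 0.589) and 10.9 kb upstream (0.469, 0.36 to 0.611). The higher 3 were the Got2 site 66.9 kb from the body (2.05, 1.12 to 3.77), a Gpt2 site 19.9 kb upstream (1.86, 1.11 to 3.16) and the Got1 site 8.01 kb inside the gene (1.64). GR counts at the Got2 and Got1 sites of these 3 were also higher, or called only, after dexamethasone, and the Gpt2 site had no GR peak. The median ratio was 0.678 at the 9 genes and 0.804 over all 26532 shared peaks, and among stronger peaks 0.667 and 0.734. Of 19 stronger sites at the 9 genes 1 was at least 1.5-fold higher, against 5.22% of all stronger peaks. At least 1.5-fold lower were 9 of the 19, against 39.8%. With the findPeaks score, which is not divided by depth, in place of the tag count the direction turned, to a median log2 ratio of 0.48 from -0.56. Vehicle peaks without a dexamethasone peak numbered 6 (20.7%, against 32.8%), 4 of them at Tat. Dexamethasone peaks without a vehicle peak also numbered 6 (20.7%, against 29.6%), led by the Gpt2 site at 51.6, which had a vehicle peak 234 bp away. The latter 6 became 3 at 8-fold over input, and 3 within 10 kb of the gene bodies. Once the tag count ratios were divided by the median over all shared peaks, the median log2 ratio was -0.25. The share of tags in NCOR1 peaks was 8.52% with vehicle and 6.38% with dexamethasone. The vehicle list came from 1 library with 17.8 M tags and the dexamethasone list from 2 with 36.9 M. The part of these differences in the ratios was not tested.

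**Figure D4:**
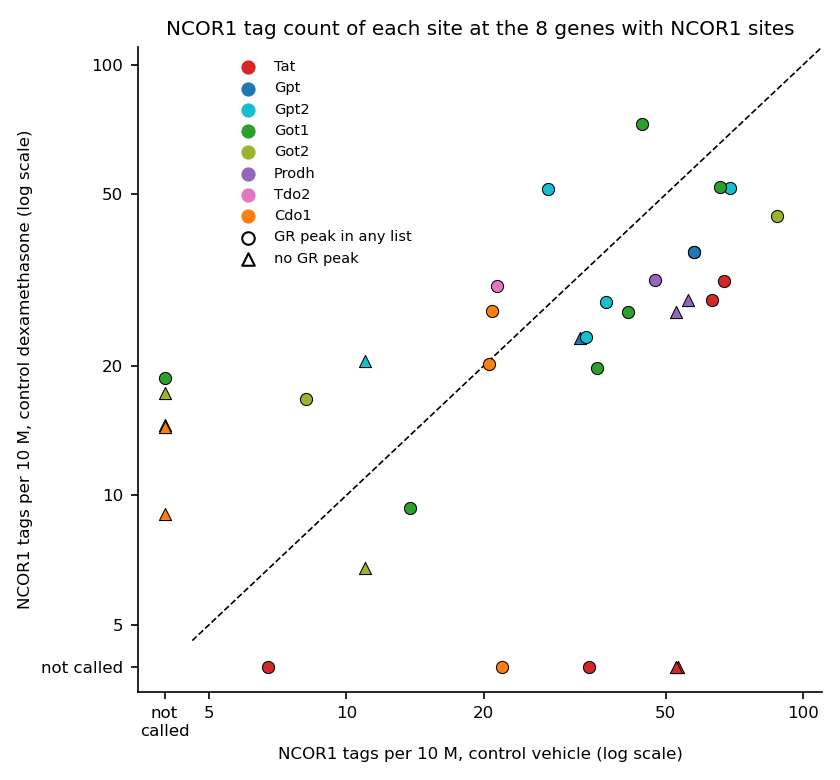
NCOR1 tag count per 10 M tags in control vehicle (horizontal axis) and control dexamethasone liver (vertical axis), both on log scales, for each site of the 8 genes with NCOR1 peaks in control liver; the dashed line marks equal counts and sites not called in a list sit on its edge. Circles have a GR peak in any list and triangles have none. The 4 Tat sites on the lower edge run from 6.75 to 53.2, and the Got1 site at 44.4 and 72.7 lies above the line.

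In dKO vehicle liver, where NCOR1 is deleted per the labels, 6 NCOR1 peaks were called at the 9 genes against 29 in control vehicle, which shares its list with the comparison above. Control peaks without a dKO peak numbered 25 (86.2%, against 79.5% of all), and they included every control vehicle NCOR1 peak of Tat, Gpt, Gpt2 and Prodh. The 4 shared sites had 18.3 against 44.4 (Got1, 8.01 kb inside the gene), 9.73 against 13.8 (Got1), 8.3 against 21.9 (Cdo1) and 6.87 against 21.4 (Tdo2), in dKO and control. Of these 3 were at least 1.5-fold lower (42.8% of all shared peaks) and 0 at least 1.5-fold higher (16.5%), and the Got1 pair at 9.73 and 13.8 had a ratio of 0.705 with an interval of 0.351 to 1.33. The median ratio was 0.395, against 0.764 over all 8097 shared peaks. The share of tags in NCOR1 peaks was 8.52% in the control and 2.07% in the dKO list, and its part in the ratios was not tested. The 2 dKO peaks without a control peak (33.3%, against 53.1%) lay in Got1 (14) and near Got2 (6.58), and with a required overlap of 100 bp they numbered 4. Stronger peaks over the genome stood lower than all peaks did, with a median of 0.298 and 78.8% at least 1.5-fold lower over 2524 peaks. Only 1 of the 4 sites, the Got1 site at 18.3 and 44.4, was among them, and its ratio of 0.412 (0.264 to 0.629) lay above that median. NCOR1 peaks at hepatocyte marker genes numbered 69 in control vehicle and 5 in dKO vehicle. Endothelial and stellate cell genes had 29 and 36, neuronal genes 11 and 3, and Kupffer cell genes 1 and 1. The part of cell makeup was not tested.

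Among 56 other genes of amino acid catabolism, which act on histidine, phenylalanine and tyrosine, tryptophan, glycine, serine and threonine, proline, ornithine, glutamine and glutamate, lysine, and the branched-chain and sulphur amino acids among others, 48 had a GR peak with vehicle and 49 with dexamethasone in control, and 44 and 45 in dKO. In control liver 31 of their 123 shared peaks (25.2%) were at least 1.5-fold higher after dexamethasone and 8 (6.5%) at least 1.5-fold lower, with a median ratio of 1.21. In dKO liver 30 of 92 (32.6%) were higher and 12 (13%) lower, with a median of 1.24. Under vehicle 47 of 91 (51.6%) were at least 1.5-fold lower in dKO, with a median of 0.629, and under dexamethasone 62 of 124 (50%), with a median of 0.664. Dexamethasone peaks without a vehicle peak made up 60 of 183 (32.8%) in control liver. No site of these genes passed 4-fold in either drug comparison, which the Tat and Cdo1 sites above did. The strongest GR site in control dexamethasone was at Hpd, the enzyme after Tat in tyrosine breakdown, with 96.8 and 141 in control and 30.8 and 67.4 in dKO. Gldc, of the glycine cleavage system, followed with 66.8 and 100.1 in control and 33.7 and 61 in dKO. Ahcy, which hydrolyses S-adenosylhomocysteine, had 144 and 89.7 in control and 41.1 and 50.3 in dKO. Aass, of lysine breakdown, had 44 and 79.8 in control and 26 and 57.7 in dKO. Mat1a, which makes S-adenosylmethionine, had 99 and 79.6 in control and 13.8 and 38.5 in dKO. Afmid, of the kynurenine pathway, had 94.1 and 78.9 in control and 42.2 and 63.5 in dKO. In all 6 the dKO count was below the control count under each treatment, whereas the order of vehicle and dexamethasone in control differed among them.

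The leading site of Tat was compared with the strongest GR site of each of 6874 genes called in all 4 GR lists, by the Euclidean distance between log2 tag counts after subtraction of each site's own mean. The nearest patterns over the 4 lists were those of Drap1 (distance 0.11), with 37.5 and 77.4 in control and 13.2 and 50.5 in dKO. Klf17 (0.12) had 101.4 and 204.3 in control and 29.9 and 119.2 in dKO, and Denr (0.12) had 23.3 and 51.6 in control and 7.55 and 33.7 in dKO.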

How the data were processed

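Reads of the 13 libraries were processed by the authors on mm10; BWA 0.7.17, bedtools 2.29.2, HOMER 4.11 and Trim Galore 0.6.4 are named in the submitters' processing notes. Per the file headers, the 7 deposited lists hold 200 bp peaks called by HOMER findPeaks on each pooled group against the input, at least 4-fold over the input and over the surrounding 10 kb and at least 400 bp apart, with a tag threshold of 15 (GR, set) or 11, 16 and 12 (NCOR1, derived). The normalized tag count is a signal deposited by the authors in tags per 10 M (mega). The deposited findPeaks score, and the authors' fold over input, a ratio, served for alternatives.

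Python 3.11.15, pandas 2.3.3, numpy 2.4.6 and scipy 1.17.1 were used. Peaks were assigned to the nearest of 21887 gene bodies and matched by an overlap of at least 1 bp. Intervals of ratios are exact conditional binomial intervals on tags and cover counting error only. Intervals of shares are Clopper-Pearson intervals on numbers of peaks, which they treat as independent draws. A shared peak was counted at a ratio of 1.5 or more. List matching was tested on simulated lists. Values are given for each gene's strongest GR site, its strongest NCOR1 site and every site reaching 30. The genes and lists were chosen with earlier results of these data known. Per the labels, NCOR1 but not GR libraries were size selected, so counts are compared within an antibody. Promoter sequences are RefSeq's (GRCm38.p6). With pooled lists, no test, batch term or replicate comparison was made.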

Additional observations from a re-analysis of the deposited data

How the results depend on the processing

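Of 106 values recomputed under 8 alternatives 94 were labelled the same, 11 moved and 1 reversed. The label of the same allowed some change and did not require an identical value. For example, control vehicle NCOR1 sites without a dKO peak numbered 18 within 10 kb of the gene body (25 before). The median log2 ratio of NCOR1 in control was -0.25 once divided by the median over all shared peaks (-0.56 before). Both were labelled the same. The values that moved or reversed follow. With peaks of at least 8-fold over input, the GR sites called after dexamethasone only numbered 4 in control and 4 in dKO (8 and 7 before), those called in dKO after vehicle only 0 (3 before), those called under vehicle in dKO only 0 (3 before), those called under dexamethasone in dKO only 1 and in control only 3 (2 and 6 before), and NCOR1 sites called after dexamethasone only 3 (6 before); fewer peaks enter there by construction. Within 10 kb of the gene body, GR sites called under dexamethasone in dKO only numbered 1, and NCOR1 sites called after dexamethasone only 3. With an overlap of at least 100 bp, NCOR1 sites called in dKO only numbered 4 (2 before). Divided by the median over all shared peaks, the median log2 ratio of dKO to control GR under dexamethasone was -0.10 (-0.52 before). With the findPeaks score in place of the tag count, the median log2 ratio of NCOR1 in control was 0.48 (-0.56 before); the score is not divided by depth, and the lists held 36.9 and 17.8 M tags. Counting peaks as shared with centres within 500 bp was an alternative chosen after seeing the data, and all 20 values kept the label of the same. Control NCOR1 sites called after dexamethasone only, and those called after vehicle only, each numbered 5 there (6 before). No paired analysis was possible because each list pools its libraries, and no library could be left out for the same reason.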
